A study of Homo sapiens with 8 samples.

Results

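CD44, its splicing regulators ESRP1 and ESRP2, and 7 genes used as markers or factors of stem-like cells (PROM1, SOX2, POU5F1, NANOG, KLF4, MYC and BMI1) were examined on whole-transcriptome arrays of SAS cells, a line of human tongue squamous cell carcinoma. The members were taken by gene name: every gene probe of the array that carries the name of 1 of the 10 genes was included, which gave all 10 of 43317 gene names, read by 14 of 58201 probes. Of the 14 probes, 9 (8 of the 10 genes) could be tested, among 27303 probes tested in all. The cells had received a mimic of miR-629-3p, of miR-210-3p or of miR-874-3p, or a negative control miRNA (NC), at 25 nM, and each of the 4 groups had 2 arrays. No group carried the CD44 standard form (CD44s) construct that the study used elsewhere to find these miRNAs. The labels call the cells SAS and give 48 h between transfection and extraction and the miRNeasy kit, whereas the methods give SAS/GFP cells (SAS with a GFP construct), 24 h and the RNeasy kit. Nothing states that the arrays of a group came from separate cultures, so the p-values measure the spread between these samples, which may be technical.

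CD44 is a cell-surface receptor for hyaluronan that anchors the cortical cytoskeleton, and its transcript is spliced into a standard form and into variant forms with additional exons. ESRP1 and ESRP2 are epithelial RNA-binding proteins that favour the variant exons, and their loss goes with a switch to the standard form. PROM1 (CD133) is a membrane glycoprotein used, like CD44, to sort tumour cells with stem-like behaviour. SOX2, POU5F1 (OCT4), NANOG, KLF4 and MYC are transcription factors of pluripotent cells, of which KLF4 is also a differentiation factor of stratified epithelia and MYC a driver of growth and ribosome synthesis. BMI1 is a Polycomb protein that maintains the self-renewal of adult stem cells.

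The 3 transfected miRNAs are shown because they are what distinguishes the groups. Their mature sequences are those of RefSeq (GRCh38.p14), and the capitals mark the seed, bases 2 to 8, through which a miRNA pairs with its targets.
miR-629-3p: gUUCUCCCaacguaagcccagc
miR-210-3p: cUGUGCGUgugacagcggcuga
miR-874-3p: cUGCCCUGgcccgagggaccga
The 3 seeds differ from each other. The letters complementary to them were sought on both strands of every probe. GGGAGAA, for miR-629-3p, was in 0 of the 14 member probes and in 1.33% of all 58201 probes. For miR-210-3p the motif ACGCACA was in 0 of the 14 and in 0.273% of all. For miR-874-3p the motif CAGGGCA was in 0 of the 14 and in 0.942% of all. With shares this low, 0 of 14 is no departure from all probes. A probe holds only a short stretch of a transcript, so the search does not show whether the members have target sites.

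Signals are given as log2 of the processed signal over the 75th percentile of the same array, so that 0 is as bright as that percentile and 1 unit is a doubling. Probes differ in how well they hybridise, so no order of transcript levels was read from the signals of different probes. A probe was called when its Benjamini-Hochberg adjusted p in limma, over all 27303 probes, was under 0.05. The values after ± are standard errors of that fit for a difference and SDs of 2 arrays for a group. Where the arrays of a group are said to lie above or below those of another, this only describes the values. Groups of 2 arrays often lie apart without a difference, and the share of all probes where they do was not computed. On each array 24338 to 28994 probes (41.8% to 49.8%) were well above background. All 8 arrays lay on 1 slide, with miR-629-3p beside miR-210-3p in row 1 and miR-874-3p beside NC in row 2. For either miR-629-3p or miR-210-3p against NC or against miR-874-3p, the mimic and the slide row therefore cannot be told apart. All 12 squamous epithelial markers, among them KRT5, KRT14, TP63 and CDH1, were well above background on all 8 arrays, with a summed signal of 473 to 649 times the 75th percentile. The fibroblast, leukocyte, endothelial and melanocyte markers, fewer for each type, summed to between 0.391 and 3.98 on every array. Of these, COL1A2, COL3A1, DCN, LUM, PDGFRA and TYR were on no array. PDGFRB, CD14, PTPRC, CDH5, VWF and PMEL were well above background on all 8 arrays.

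KLF4 was the only member called among the 9 probes tested: its signal was higher under miR-629-3p than in NC, and no other tested probe of the 10 genes was called in any of the 3 comparisons with NC. With miR-629-3p, 1 of the 9 tested member probes was called, against 15.9% of all probes tested. With miR-210-3p, 0 of 9 were called, against 6.21% of all, and with miR-874-3p, 0 of 9 were called, against 0.33% of all. At an unadjusted p under 0.05 in limma the counts were 1, 1 and 0 of 9, against 33%, 27% and 15.5% of all probes, and the methods' t-test gave 1, 0 and 0 before and 0, 0 and 0 after Benjamini-Hochberg adjustment. Requiring an unadjusted p under 0.05 and a change of at least 2-fold gave 1, 0 and 0 of the 9 member probes, against 5.55%, 3.34% and 2.02% of all probes. The median difference of the 9 probes from NC was 0.10, 0.17 and -0.04 for the mimics in that order, beside 0.08, 0.09 and -0.0015 over all probes tested.

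**Figure D1:**
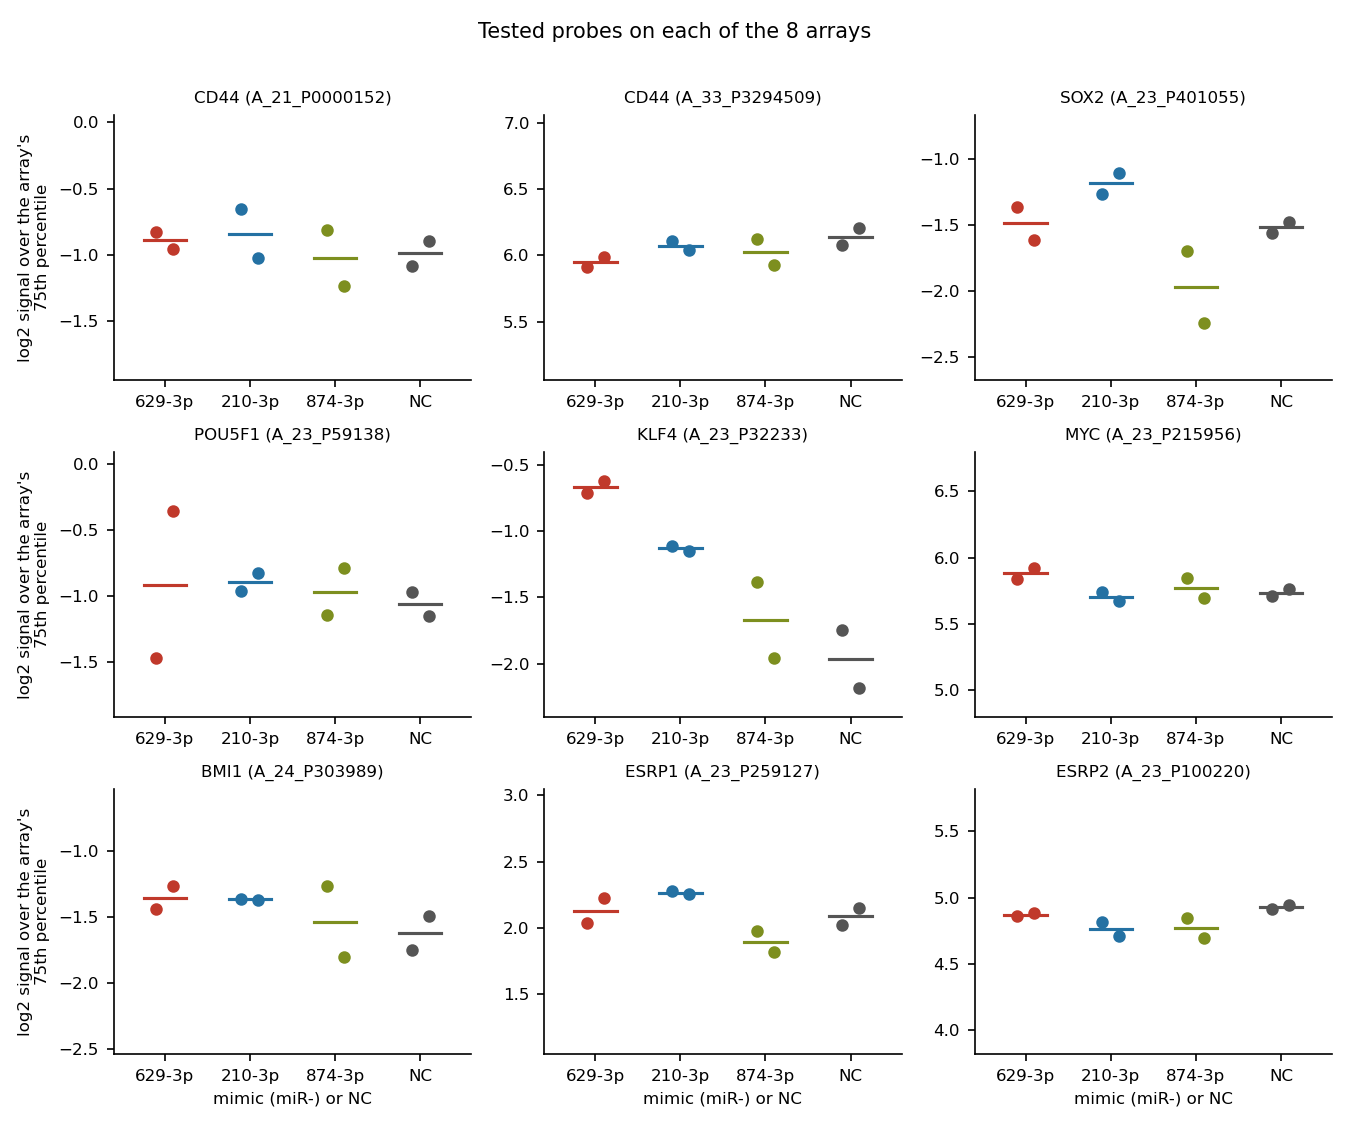
Log2 signal over the array's 75th percentile (y axis, 2 log2 units in each panel) of the 9 tested probes on each array; points are arrays, lines are the means of the 2 arrays of a group. In KLF4 the miR-629-3p arrays (-0.71 and -0.62) lie above the other 6, whereas in both CD44 panels the arrays of the groups lie close together or overlap.

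The KLF4 probe, A_23_P32233, lies on the minus strand at chr9:110248049-110248108 of hg19 and carries the only called change. It reads, in the direction of the transcript, as follows.
KLF4 A_23_P32233: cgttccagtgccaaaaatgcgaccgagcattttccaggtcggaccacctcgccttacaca
Its log2 signal was -0.71 and -0.62 in the miR-629-3p group, -1.12 and -1.15 under miR-210-3p, -1.38 and -1.96 under miR-874-3p, and -1.75 and -2.19 in NC. Every array of the first 2 groups was above every array of the other 2, and miR-874-3p overlapped NC. KLF4 rose by 1.30 ± 0.23 with miR-629-3p against NC, which is 2.46-fold (95% interval 1.67 to 3.62; adjusted p = 0.0200, limma).

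With miR-210-3p the KLF4 signal was 0.83 ± 0.23 above NC (1.78-fold, 95% interval 1.21 to 2.62), and this difference was not called (adjusted p = 0.0855). With miR-874-3p it was 0.30 ± 0.23 above NC (adjusted p = 0.577). Between the mimics, KLF4 was 1.00 ± 0.23 higher with miR-629-3p than with miR-874-3p (adjusted p = 0.0377), where 15.8% of all probes were called. The differences between neighbours in the order of the groups were not called: miR-629-3p was 0.46 ± 0.23 above miR-210-3p (95% interval -0.09 to 1.02; adjusted p = 0.201), where 20.3% of all probes were called, and miR-210-3p was 0.54 ± 0.23 above miR-874-3p (95% interval -0.02 to 1.09; adjusted p = 0.186), where 9.63% of all probes were called. Across the 4 groups, KLF4 was the only member called by the F test (1 of 9, adjusted p = 0.0330), against 24% of all probes.

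The 2 comparisons of KLF4 within a slide row were miR-629-3p against miR-210-3p and miR-874-3p against NC, and neither was called. The arrays of row 1 also had more probes well above background (27080 to 28994) than those of row 2 (24338 to 26963), and fewer spots flagged as outliers (87 to 162 against 297 to 346 of 60901). KLF4 was a dim probe, with a processed signal of 16.0 to 48.1 intensity units over the 8 arrays. The part of slide row and of array background in the KLF4 difference was not tested. With normexp background correction, which adds an offset of 50 units to every spot, the difference of miR-629-3p from NC shrank to 0.47 ± 0.07 (1.39-fold, adjusted p = 0.00346) and that of miR-210-3p to 0.28 ± 0.07, which was then called (adjusted p = 0.0368). The miR-629-3p call was lost without NC replicate 2 (1.08 ± 0.25, adjusted p = 0.0824) and without either miR-629-3p array (adjusted p = 0.0978 and 0.100).

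**Figure D2:**
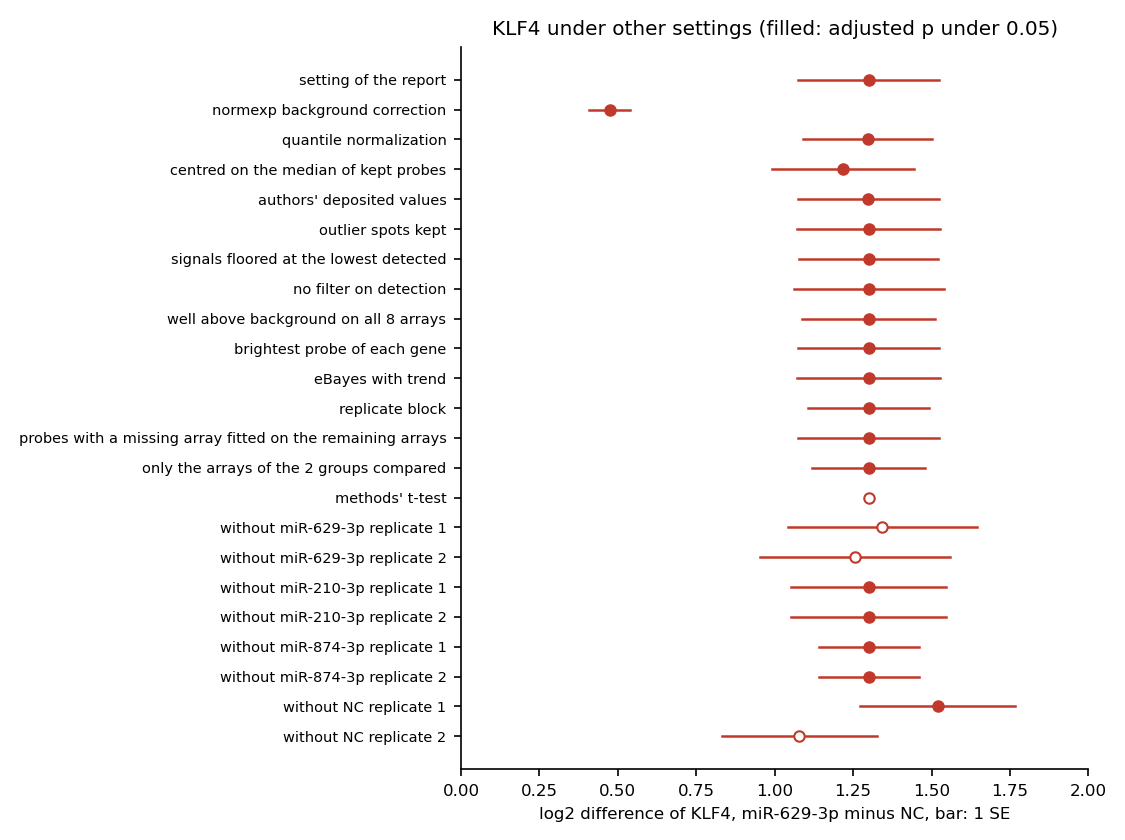
Log2 difference of KLF4 between miR-629-3p and NC (x axis, linear from 0) under each setting, with bars of 1 standard error (none for the methods' t-test); filled points have an adjusted p under 0.05. The difference is above 0 in every row, is smallest with normexp (0.47) and loses its call in 4 of the rows. Rows that change only the filter, the test or the variance, or leave out arrays of the other mimics, keep the same difference by construction.

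Relatives of KLF4 and SOX2 were described beside them. Of 29 genes of the SOX, KLF and POU families outside the 10 members, 20 were tested with 25 probes, and with miR-629-3p 1 rose and 1 fell (8% called, beside 15.9% of all probes; median -0.08). The count was 2 to 10 under the other limma settings. SOX7, an endoderm and vascular SOX factor, rose by 0.91 ± 0.15 (adjusted p = 0.0166), and KLF7, a KLF factor of developing neurons, fell by 1.29 in log2 units (SE 0.17, adjusted p = 0.0114). The KLF7 probe was dim, with a mean log2 signal of -2.13 with miR-629-3p and -0.84 in NC, so the size of its fall is uncertain. With miR-210-3p the only call was SOX9, a factor of cartilage and epithelial progenitors, which rose by 1.05 ± 0.17 (adjusted p = 0.0317).

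CD44 did not differ from NC at the threshold with any mimic at either of its probes. The probe A_33_P3294509 (chr11:35253812-35253871, plus strand, hg19) is listed for 4 RefSeq transcripts, transcript variant 1 among them. Its log2 signal was 5.91 and 5.99 in the miR-629-3p group, 6.10 and 6.04 under miR-210-3p, 6.12 and 5.93 under miR-874-3p, and 6.08 and 6.21 in NC. Both miR-629-3p arrays lay below both NC arrays, and the other mimics overlapped NC. The differences from NC were -0.19 ± 0.10 with miR-629-3p (95% interval -0.44 to 0.05; adjusted p = 0.240), -0.07 ± 0.10 with miR-210-3p (95% interval -0.31 to 0.18) and -0.12 ± 0.10 with miR-874-3p (95% interval -0.36 to 0.13). On a linear scale these intervals do not reach 2-fold in either direction.

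The other CD44 probe, A_21_P0000152 (chr11:35244791-35244850, plus strand, hg19), is listed only for transcript variant 8. It gave -0.83 and -0.95 in the miR-629-3p group, -0.65 and -1.03 under miR-210-3p, -0.81 and -1.24 under miR-874-3p, and -1.08 and -0.90 in NC. All 3 mimics overlapped NC. Its differences from NC were 0.10 ± 0.19, 0.15 ± 0.19 and -0.04 ± 0.19 for the mimics in the same order (adjusted p = 0.753, 0.657 and 0.952). The annotation holds at most 4 accessions a probe, so it does not give which of the CD44 forms, standard or variant, each probe reads.

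Whether the 2 CD44 probes changed unequally was asked with the unequal-change test of limma (diffSplice), over 8382 probes of 3721 genes with several probes on all 8 arrays. The change of A_21_P0000152 minus that of A_33_P3294509 was 0.29 ± 0.22 with miR-629-3p (adjusted p = 0.578), 0.22 ± 0.22 with miR-210-3p (adjusted p = 0.748) and 0.08 ± 0.22 with miR-874-3p (adjusted p = 0.998). Neither CD44 probe was called, against 5.33%, 3.15% and 0.286% of all probes in that test. The log2 difference between the 2 probes was -6.74 and -6.94 in the miR-629-3p group, -6.76 and -7.07 under miR-210-3p, -6.94 and -7.17 under miR-874-3p, and -7.16 and -7.10 in NC. The first 2 groups lay above both NC arrays, and miR-874-3p overlapped them.

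**Figure D3:**
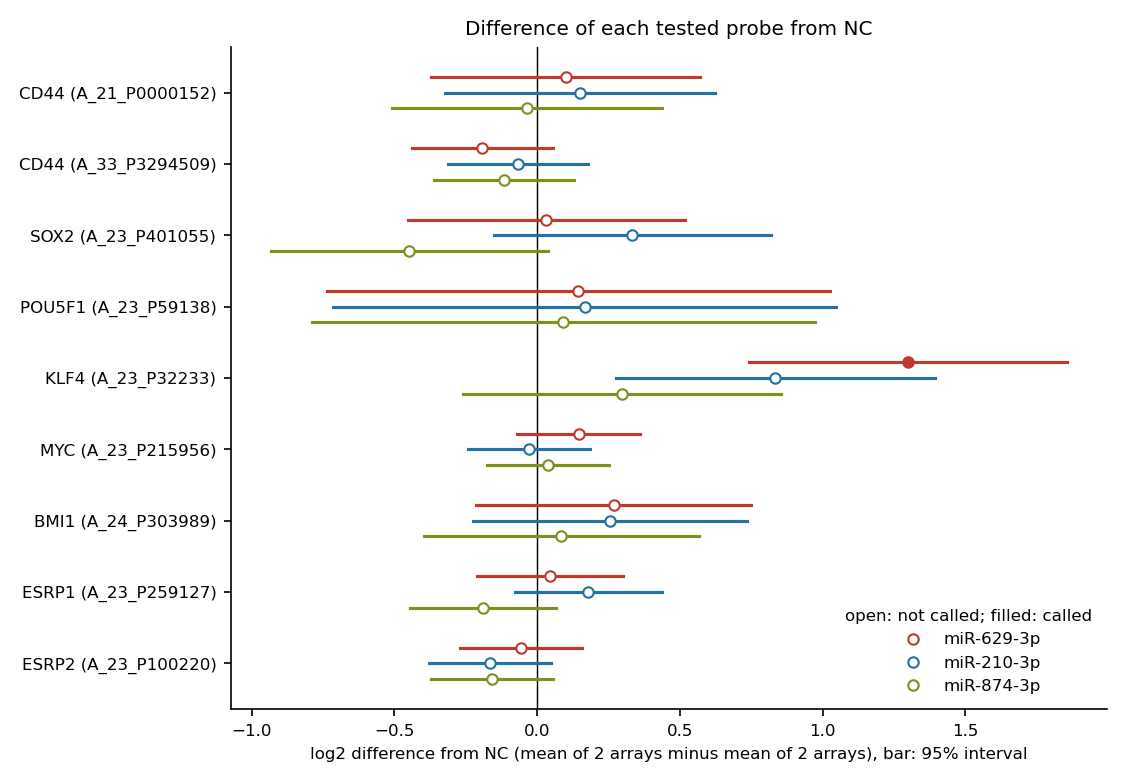
Log2 difference from NC (x axis) of each tested probe (y axis) with the 3 mimics; points are the mean of 2 arrays minus the mean of the 2 NC arrays, bars are 95% intervals, and filled points are called. Only KLF4 with miR-629-3p (1.30) is filled, and the intervals of both CD44 probes, both ESRP genes and MYC cover 0 with every mimic.

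Genes that act with CD44 at the cell surface were taken as context. The list holds 25 genes for hyaluronan synthesis and breakdown, CD44 sheddases and its membrane partners, of which 19 were tested with 28 probes. With miR-629-3p 4 probes rose and 1 fell (17.9% called, beside 15.9% of all probes; median 0.12). The count was 3 to 10 under the other limma settings. SLC7A11, the cystine transporter that variant CD44 stabilises at the membrane, had a log2 signal of 5.17 with miR-629-3p and 3.11 with NC, a rise of 2.06 ± 0.10 or 4.17-fold (adjusted p = 0.00103). HAS3, a hyaluronan synthase, fell by 0.68 in log2 units (SE 0.11, adjusted p = 0.0181), a change that its other tested probe did not show at the threshold. The HAS3 probe that fell was dim, with a mean log2 signal of -1.89 with miR-629-3p and -1.21 in NC, so the size of its fall is uncertain. The remaining risers, named after their values were seen, were MET, a receptor kinase that can use CD44 as a co-receptor (0.48 ± 0.08), NF2, the merlin protein that binds its cytoplasmic tail (0.70 ± 0.09), and the ankyrin gene ANK3. ANK3 was well above background on only 2 of the 8 arrays, both of miR-629-3p, so it entered the tests only through the group where it was bright, its call follows from that filter, and without it 3 probes rose. With miR-210-3p the only call in this list was MET, which rose by 0.75 ± 0.08 (adjusted p = 0.0123).

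ESRP1 and ESRP2, which set the splicing of CD44, did not differ from NC at the threshold. ESRP1 (A_23_P259127, on chromosome 8) had log2 signals of 2.04 and 2.22 in the miR-629-3p group, 2.28 and 2.25 under miR-210-3p, 1.97 and 1.82 under miR-874-3p, and 2.02 and 2.15 in NC. The miR-210-3p arrays lay above both NC arrays, the miR-874-3p arrays below them, and the miR-629-3p arrays overlapped them. The differences from NC were 0.04 ± 0.10, 0.18 ± 0.10 and -0.19 ± 0.10 (adjusted p = 0.798, 0.326 and 0.438), and miR-210-3p was 0.37 ± 0.10 above miR-874-3p (adjusted p = 0.0808).

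ESRP2 (A_23_P100220, 10 spots on each array, chr16:68263054-68263113, minus strand, hg19) had log2 signals of 4.86 and 4.88 in the miR-629-3p group, 4.81 and 4.71 under miR-210-3p, 4.85 and 4.69 under miR-874-3p, and 4.92 and 4.95 in NC. Both NC arrays were above every mimic array. The differences from NC were nevertheless small, at -0.06 ± 0.09, -0.17 ± 0.09 and -0.16 ± 0.09 (adjusted p = 0.679, 0.281 and 0.438), and their 95% intervals reached no further than -0.38.

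Of 30 other regulators of CD44 or epithelial splicing and of the epithelial state, 29 were tested with 44 probes. With miR-629-3p 3 probes rose and 1 fell (9.09% called, beside 15.9% of all probes). The count was 2 to 6 under the other limma settings, and the median (-0.01) took either sign. MBNL2, a muscleblind splicing factor, rose by 0.69 ± 0.07 (adjusted p = 0.00739), which its other tested probe did not show at the threshold. HNRNPF, a binder of G-rich RNA, fell by 0.35 in log2 units (SE 0.08, adjusted p = 0.0350). RBM47, an epithelial RNA-binding protein (0.63 ± 0.11), and OVOL1, an epithelial transcription factor (0.60 ± 0.13), were the other risers, named after their values were seen. With miR-210-3p, 1 of 3 tested probes of TRA2B, a factor that favours variant exons of CD44, rose by 0.44 ± 0.09 (adjusted p = 0.0489), and U2AF2, which binds ahead of the splice acceptor, fell by 0.50 in log2 units (SE 0.08, adjusted p = 0.0315).

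SOX2 (A_23_P401055, chr3:181431877-181431936, plus strand, hg19) was well above background on all 8 arrays and was not called against NC. Its log2 signal was -1.36 and -1.62 in the miR-629-3p group, -1.27 and -1.11 under miR-210-3p, -1.70 and -2.24 under miR-874-3p, and -1.56 and -1.48 in NC. The miR-210-3p arrays were the highest and the miR-874-3p arrays the lowest, with no overlap with NC in either case. The differences from NC were 0.03 ± 0.20, 0.33 ± 0.20 and -0.45 ± 0.20 (adjusted p = 0.929, 0.335 and 0.352). The widest gap, between miR-210-3p and miR-874-3p, was 0.78 ± 0.20 (95% interval 0.30 to 1.27; adjusted p = 0.0635).

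POU5F1 was read by a pair of probes with different results. A_23_P59138 (chr6:31132178-31132237, minus strand, hg19) was well above background on all 8 arrays, with log2 signals of -1.47 and -0.36 in the miR-629-3p group, -0.96 and -0.82 under miR-210-3p, -1.14 and -0.79 under miR-874-3p, and -0.97 and -1.15 in NC. Its miR-629-3p arrays lay 1.11 apart and spanned all the others, and the 2 miR-210-3p arrays lay above NC. The differences from NC were 0.14 ± 0.36 (95% interval -0.74 to 1.03), 0.17 ± 0.36 and 0.09 ± 0.36 (adjusted p = 0.812, 0.805 and 0.933), so these arrays bound POU5F1 less tightly than the other members. A_24_P144601 covers 344 bases of chr6:31133025-31133368 (minus strand, hg19) with 60 bases of probe, so it crosses an exon junction, and it was well above background on none of the 8 arrays.

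The junction probe of POU5F1 is shown beside that of BMI1, because the former was on no array and the latter on all 8. For PROM1, well above background on a lone array, the probe is shown too.
POU5F1 A_24_P144601: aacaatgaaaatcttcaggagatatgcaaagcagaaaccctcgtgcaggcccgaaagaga
BMI1 A_24_P303989: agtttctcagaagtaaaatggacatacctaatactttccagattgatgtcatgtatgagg
PROM1 A_33_P3389842: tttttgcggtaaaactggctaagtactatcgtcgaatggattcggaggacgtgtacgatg
POU5F1 and NANOG have processed pseudogenes of near-identical sequence, and from which copy the signal of a probe came was not tested. The log2 signal of A_24_P144601 was between -5.73 and -4.08, below the lowest signal that was well above background on each array (-3.74 to -2.87). NANOG (A_23_P204640, chr12:7948487-7948546, plus strand, hg19) gave -5.73 to -3.81 and was also well above background on no array. Neither probe has a level here, only a bound, and their differences between groups carry no level. With no filter on detection they were not called with any mimic.

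PROM1 (A_33_P3389842, chr4:15982046-15982105, minus strand, hg19) was well above background on 1 array, miR-874-3p replicate 1, at -2.52. On the other 7 arrays it was between -5.81 and -4.97, and the other miR-874-3p array, at -4.98, was level with the NC arrays (-5.01 and -4.97). The probe therefore did not enter the tests, and with no filter on detection it was not called with any mimic.

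**Figure D4:**
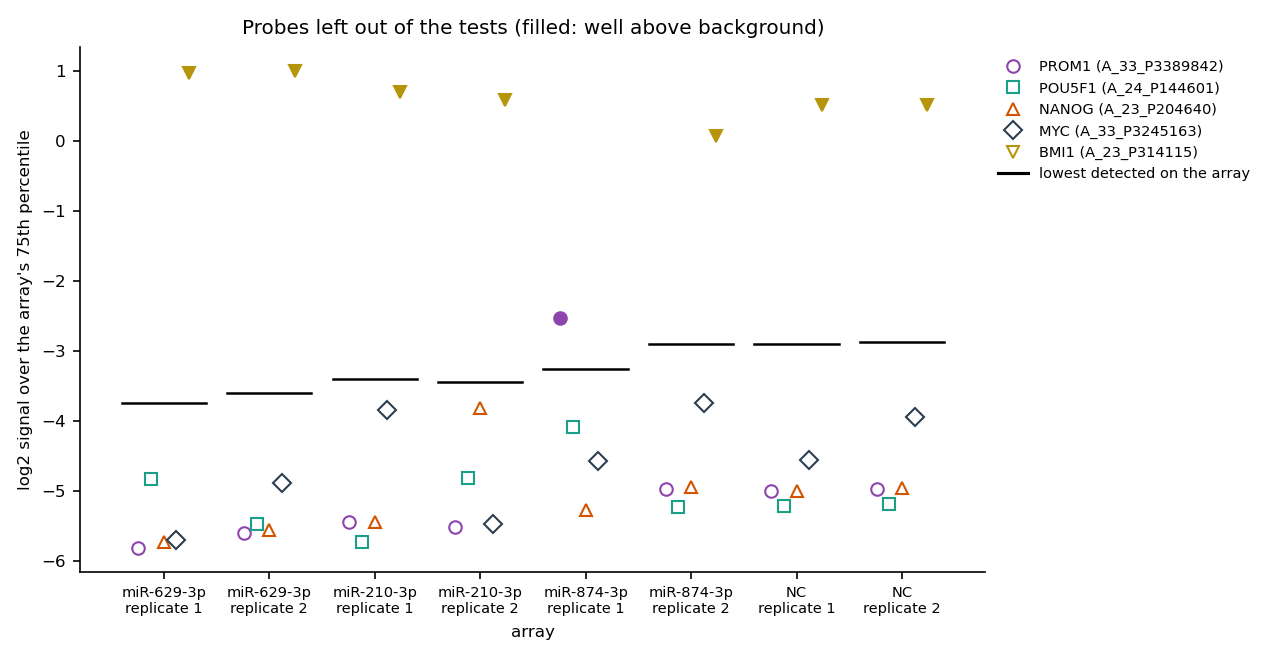
Log2 signal over the array's 75th percentile (y axis) of the 5 member probes left out of the tests, on each array (x axis); filled points are well above background and black lines are the lowest signal well above background on that array. NANOG, the junction probe of POU5F1 and the second MYC probe lie below the lines on all arrays, PROM1 lies above its line only on miR-874-3p replicate 1, and the BMI1 probe lies above them wherever it has a value.

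Other genes of the pluripotency circuit were for the most part not bright enough to test. Of 26 genes, 11 were tested with 12 probes. With miR-629-3p KLF2, a KLF factor of naive pluripotency and of endothelium, rose by 0.46 ± 0.10 (adjusted p = 0.0388), and TFCP2L1, a factor of naive pluripotency and of kidney epithelium, fell by 0.52 in log2 units (SE 0.10, adjusted p = 0.0281). These were the only calls (16.7% of the 12 probes, beside 15.9% of all probes; median -0.06). Under the other limma settings the count was 0 to 5, and the median reached -0.36 when undetected probes were kept. With miR-210-3p KLF2 rose by 1.35 ± 0.10, or 2.55-fold (adjusted p = 0.00750), the only call in this list.

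Surface and enzyme markers of stem-like cells, the company of PROM1 and CD44, gave calls in both directions. Of 28 genes, 22 were tested with 26 probes, and with miR-629-3p 5 rose and 3 fell (30.8% called, beside 15.9% of all probes). The count was 4 to 12 under the other limma settings, and the median (0.00) took either sign. CD24, a surface glycoprotein whose absence beside CD44 is used to sort breast cancer cells, rose by 1.12 ± 0.27 (adjusted p = 0.0430), and ALDH1A3, a retinaldehyde dehydrogenase, fell by 0.75 in log2 units (SE 0.13, adjusted p = 0.0217). Among the other risers, named after their values were seen, were the drug efflux pump ABCG2 (1.00 ± 0.16), the laminin receptor subunit ITGA6 (0.46 ± 0.08) and the kinase DCLK1, which was well above background on only 4 of the 8 arrays and on neither NC array, so that its call rests on the filter. DCLK1 is counted among the 5 risers and in the 30.8%, so that share is not to be read as a result about the list. CD47, the signal against phagocytosis, and the RNA-binding protein MSI1 fell by 0.65 and 0.57 on the log2 scale. With miR-210-3p PODXL, a sialomucin, rose by 0.68 ± 0.11, EPCAM by 0.42 ± 0.08 and the RNA-binding protein MSI2 by 0.42 ± 0.07, while CD47 fell by 0.38 (15.4% called, beside 6.21% of all probes). The median with miR-210-3p, 0.26, turned to -0.05 with no filter on detection, and the count was 0 to 11 under the other limma settings.

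MYC did not differ from NC at the threshold with any mimic. Its probe A_23_P215956 (chromosome 8, 10 spots on each array) had log2 signals of 5.84 and 5.92 in the miR-629-3p group, 5.74 and 5.67 under miR-210-3p, 5.85 and 5.70 under miR-874-3p, and 5.71 and 5.77 in NC. The miR-629-3p arrays were above both NC arrays and the others overlapped them. The differences were 0.14 ± 0.09, -0.03 ± 0.09 and 0.04 ± 0.09 (adjusted p = 0.301, 0.862 and 0.879), with 95% intervals that stayed between -0.24 and 0.36. A second probe, A_33_P3245163, made for a transcript from the upstream P0 promoter of MYC, was well above background on no array.

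The partners and the targets of MYC were described beside it. Of 25 genes of the MYC, MAX and MXD network and its cofactors, 23 were tested with 43 probes, and with miR-629-3p 2 rose and 4 fell (14.0% called, beside 15.9% of all probes; median -0.03). MXD1, a repressor that competes with MYC for MAX, rose by 0.82 ± 0.11 (adjusted p = 0.0120; not called at its other tested probe), whereas MXI1, a repressor of the same family, fell at 2 probes, by 0.78 at the less changed of them. MYCL, a MYC paralogue, fell by 1.40 in log2 units (SE 0.25, adjusted p = 0.0206). Its mean with miR-629-3p, -3.34, was near the lowest signal well above background on those arrays (-3.74 and -3.60). It was below that of the NC arrays (-2.90 and -2.87), so the size of the fall is uncertain. The chromatin remodelling genes BPTF (0.80 ± 0.11) and RUVBL2, which fell by 0.48, complete the calls. MXI1, BPTF and RUVBL2 were named after their values were seen. With miR-210-3p 1 of 6 tested probes of the long noncoding RNA PVT1 rose by 0.71 ± 0.09 (adjusted p = 0.0181), and MAX and MLXIP fell by 0.41 and 0.46.

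Of 35 genes known as MYC targets in growth, ribosome synthesis and metabolism, 34 were tested with 48 probes. With miR-629-3p 0 rose and 10 fell (20.8% called, beside 15.9% of all probes), and the median difference was -0.33, beside 0.08 over all probes tested. These shares join both directions. By direction, 2936 of all 27303 probes tested were called higher and 1393 lower. The count was 4 to 23 under the other limma settings. LDHA, lactate dehydrogenase A, fell by 0.77 (SE 0.10, adjusted p = 0.00972) at 1 probe and by 0.73 (SE 0.08, adjusted p = 0.00750) at the other. The mitochondrial chaperonin genes HSPD1 (by 0.68) and HSPE1 (by 0.53 and 0.62 at 2 probes), the nucleolar genes NOLC1 (by 0.75), BOP1 (by 0.48) and FBL (by 0.40), the replication helicase gene MCM7 (by 0.44) and the DNA repair endonuclease gene APEX1 (by 0.44) also fell on the log2 scale, and were named after their values were seen. With miR-210-3p the only call was EIF4E, the cap-binding translation factor, which rose by 0.56 ± 0.10 at 1 of 3 tested probes, and the list median was 0.09, as over all probes.

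**Figure D5:**
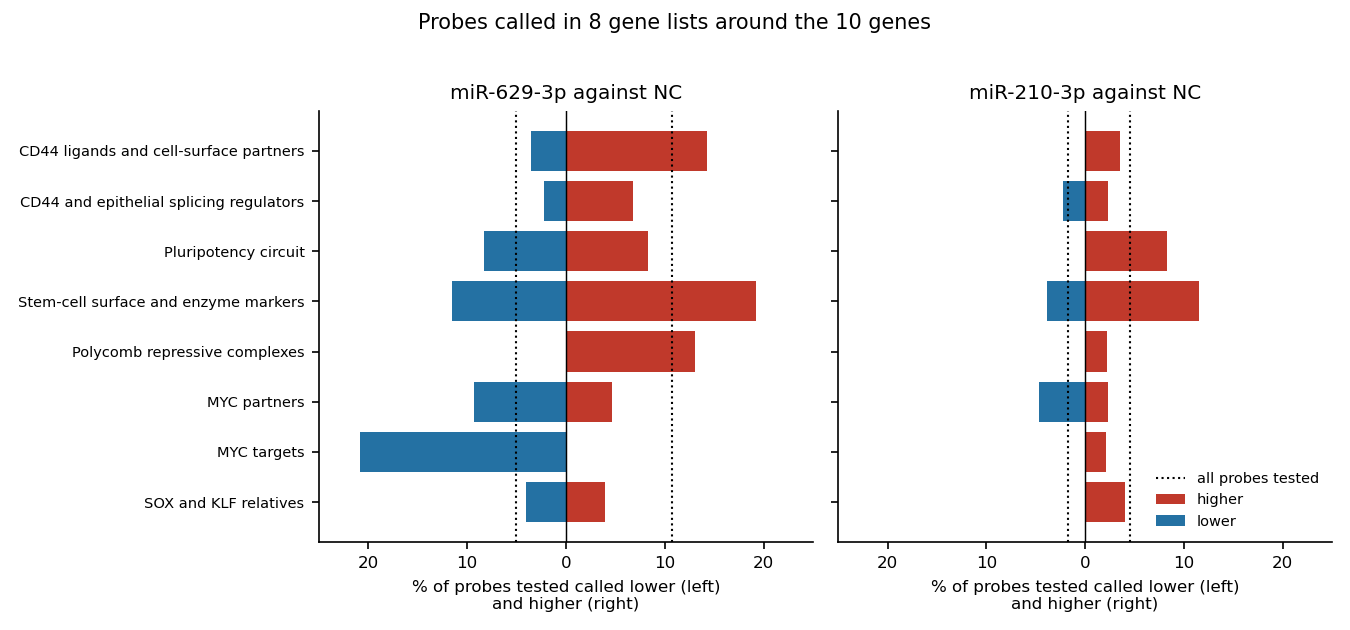
Percent of the tested probes of 8 gene lists (y axis) called lower (left of 0) and higher (right of 0) under miR-629-3p or miR-210-3p against NC, and dotted lines are the same percentages over all probes tested. With miR-629-3p the MYC targets have 10 of 48 probes called lower and 0 higher, and the Polycomb genes 6 of 46 called higher and 0 lower.

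BMI1 had 1 tested probe and 1 that was left out for a flagged spot. Both probes are listed also for COMMD3-BMI1, a read-through transcript, so the 2 cannot be told apart. The junction probe A_24_P303989, which covers 409 bases of chr10:22617587-22617995 (plus strand, hg19) with 60 bases, gave -1.44 and -1.27 in the miR-629-3p group, -1.36 and -1.37 under miR-210-3p, -1.27 and -1.81 under miR-874-3p, and -1.75 and -1.50 in NC. All arrays of the first 2 groups were above both NC arrays, and the miR-874-3p arrays overlapped them. The differences from NC were 0.27 ± 0.19, 0.26 ± 0.19 and 0.08 ± 0.19 (adjusted p = 0.387, 0.449 and 0.878).

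The other BMI1 probe, A_23_P314115 (chr10:22619577-22619636, plus strand, hg19), was well above background on the 7 arrays where it had a value. It gave 0.97 and 1.00 in the miR-629-3p group, 0.70 and 0.58 under miR-210-3p, 0.06 on the second miR-874-3p array, and 0.51 and 0.52 in NC. The spot on the first miR-874-3p array was flagged as an outlier. Both miR-629-3p arrays were the highest and the remaining miR-874-3p array the lowest. In a fit that dropped the flagged spot and used the 7 remaining arrays, an alternative chosen after seeing the data, BMI1 at this probe was 0.47 ± 0.08 above NC with miR-629-3p (adjusted p = 0.0287), 0.12 ± 0.08 with miR-210-3p (adjusted p = 0.401) and -0.45 ± 0.10 with miR-874-3p (adjusted p = 0.162). With the flagged spot kept, at 4.79, the miR-629-3p difference was not called (adjusted p = 0.851).

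Genes of the Polycomb repressive complexes were described beside BMI1. All 32 genes of the list, which also holds the BMI1-repressed genes CDKN2A and CDKN2B, were tested, with 46 probes. With miR-629-3p 6 probes rose and 0 fell (13.0% called, beside 15.9% of all probes, with a median of 0.09). Of all 27303 probes tested, 2936 were called higher and 1393 lower, and the 15.9% joins both directions. The count was 4 to 14 under the other limma settings. PHC2, a core subunit of Polycomb repressive complex 1, rose at 2 probes, by 0.73 ± 0.09 (adjusted p = 0.00985) and 0.67 ± 0.12 (adjusted p = 0.0200). PHF19, an accessory subunit of Polycomb repressive complex 2 (0.58 ± 0.08 at 1 of its 2 tested probes), PCGF5, a RING finger relative of BMI1 (0.44 ± 0.09), and RYBP and YAF2, a pair of related subunits of variant complexes (0.71 ± 0.13 and 0.58 ± 0.14), were the others, named after their values were seen. With miR-210-3p the only call was PHF19, which rose by 0.68 ± 0.08 (adjusted p = 0.0174).

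With miR-874-3p 0 of the 272 tested probes of the 8 lists were called in limma (40, or 14.7%, had an unadjusted p under 0.05, beside 15.5% of all probes, and the lowest adjusted p was 0.0699). For miR-629-3p 43 of the 272 (15.8%) were called, beside 15.9% of all probes, and for miR-210-3p 14 (5.15%), beside 6.21% of all, so the lists together lay near the share over all probes. The counts were 0 with every mimic by the methods' t-test after adjustment.

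The genes whose signal moved most like that of each member over the 8 arrays were found by Pearson r among 22058 probes of other genes well above background on all arrays. This is a description over 8 arrays that share groups and a slide. With 8 arrays and 22058 probes some high values of r arise by chance, and how many was not tested. A near gene is therefore not shown to vary together with a member. For the CD44 probe A_33_P3294509, whose own range was only 0.30, the 5 nearest were the nucleosome-binding gene HMGN1 (r = 0.987), the helicase gene WRN (r = 0.979), the Rab regulator GDI2 (r = 0.978), the unnamed probe A_33_P3225983 (r = 0.971) and the aminopeptidase gene LAP3 (r = 0.968), and 82 probes had an r over 0.9. KLF4, with a range of 1.56, was nearest to RWDD1 (r = 0.994), and 347 probes had an r over 0.9. SOX2 was nearest to TSHZ1 (r = 0.982) and PINX1 (r = 0.974), ESRP1 to CDADC1 (r = 0.980) and TMEM208 (r = 0.964), and ESRP2 to GML (r = 0.960) and PKIG (r = 0.956). POU5F1 was nearest to ARHGAP10 (r = 0.973) and lnc-PREX1-3 (r = 0.970), MYC to PIPOX (r = 0.971) and lnc-WDR63-1 (r = 0.967), and the junction probe of BMI1 to KRTAP2-3 (r = 0.961) and BUD31 (r = 0.960). The probes with an r over 0.9 numbered 149 for SOX2, 174 for ESRP1 and 14 for ESRP2. For POU5F1, MYC and BMI1 they numbered 4, 42 and 49.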

How the data were processed

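Each of 8 samples (100 ng of total RNA per the labels) was labelled with Cy3 and hybridised to its own Agilent SurePrint G3 Human GE v3 microarray. The scanner files deposited by the authors hold intensity values of each spot (background-subtracted processed signal, mean signal and local background), not normalized between arrays, and quality flags. They were written by Agilent Feature Extraction 11.5.1.1, per the submitters' processing notes. A table of log2 values, also deposited, differed from the scanner values by a constant of 0.00580 to 0.00755 per array (within 5.02e-05) and served as an alternative. Here the log2 processed signal minus the 75th percentile of its array was used, leaving out control spots and spots flagged as outliers, and spots of a probe were averaged. Probes lacking a value on any of the 8 arrays were dropped, as were those without a group whose 2 arrays were well above background. No spot was saturated. The model (lmFit, eBayes and diffSplice; limma 3.58.1, R 4.3.3) had the 4 groups and no covariates (residual degrees of freedom 4, prior 1.74), with Benjamini-Hochberg adjustment, and was tested on simulated data. The number of arrays limits the precision.

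The members and the gene lists were chosen with earlier results of these data known. The genes named are the member probes; from each list and mimic, the largest called rise and fall among probes on all 8 arrays whose miRNA arrays both lie beyond both NC arrays; the genes nearest to each member; and the cell type markers. Alternatives covered background correction, normalization, filters, outlier spots, probes of a gene, variance, test, call rule, replicate block and each array left out. Replicate numbers did not pair the arrays. Probe coordinates and gene names are those of the array annotation (hg19). A few items that the rule would name are not reported here.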

Additional observations from a re-analysis of the deposited data

Results flagged for a closer look

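PROM1 was read above background on a lone array. Its probe A_33_P3389842, outside the tested probes, had a log2 signal of -2.52 on miR-874-3p replicate 1 and was well above background there, whereas both NC arrays were not (-5.01 and -4.97). The other miR-874-3p array did not show it (-4.98).

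The BMI1 probe A_23_P314115 had an outlier-flagged spot on miR-874-3p replicate 1, with a log2 signal of 4.79 that was left out of the tests. The other miR-874-3p array gave 0.06 and the NC arrays 0.51 and 0.52.

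KLF4 differed between miR-629-3p and miR-874-3p by 1.00 ± 0.23 in the test of that difference (limma, adjusted p = 0.0377). The arrays of these groups lie in different slide rows, so the mimic and the slide row cannot be told apart in this difference.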

How the results depend on the processing

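The number of member probes called with miR-629-3p against NC (1) became 2 when probes with a missing array were fitted on the remaining arrays (KLF4 and BMI1; chosen after seeing the data), 0 with the methods' t-test, and 0 to 2 with 1 array left out. KLF4 lost its call there without either miR-629-3p array or without NC replicate 2, and BMI1 was added without miR-874-3p replicate 1. The number with miR-210-3p (0) became 1, KLF4, with normexp background correction, and was 0 to 1 with 1 array left out (KLF4 without either miR-874-3p array). With miR-874-3p it was 0 under all 15 alternatives and 0 with any array left out. Across the 4 groups the F test count (1) became 2 with normexp (KLF4 and SOX2), 2 with the missing-array fit, 0 with no filter on detection, 0 with the methods' one-way ANOVA and 0 to 3 with 1 array left out, where 3 (KLF4, SOX2 and BMI1) came without miR-874-3p replicate 1. The CD44 probes gave 0 calls for unequal change under all alternatives run. The cause of these changes was not tested.

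The replicate numbers did not pair the arrays (correlations of their deviations between -0.10 and 0.04). With the replicate block 1, 0 and 0 member probes were called against NC and KLF4 had an adjusted p of 0.0319 with miR-629-3p, so it changed no call. The KLF4 difference with miR-629-3p was above 0 in 23 of 23 alternatives and was called in 19. Many of these changed only the filter, the test, the variance or the call rule, or left out arrays of the other mimics. There the difference kept the same value of 1.30 by construction, so its sign could not change. The 2-fold call rule reused the fit of the report. The MYC target median with miR-629-3p ranged from -0.42 to -0.30, and by the t-test 0 of its probes were called. Groups of 2 arrays limit what could be called, and PROM1, NANOG and the second probes of MYC and POU5F1 have only a bound. With miR-210-3p the number of called probes of a list was 0 at its lowest for all 8 lists and at most 11, and the median turned sign for the ligand, MYC partner, pluripotency, SOX and KLF, and stem marker lists under at least 1 setting.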
